A study of Mus musculus with 6 samples.

Results

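Comp, which encodes cartilage oligomeric matrix protein (thrombospondin 5), and the thrombospondin genes Thbs1, Thbs2, Thbs3 and Thbs4 were followed in sorted osteoblasts and cementoblasts. They were taken as every probe whose gene symbol in the platform annotation is one of these names, which gave 5 genes of 16593 and 7 probes of 25697 on the array. Thbs3 had 3 probes and the others 1 each. The family was selected with Comp's low signal in cementoblasts already seen, so the difference between the groups is given for its members as a description, with no test.

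RNA was measured on Illumina bead arrays in GFP-positive cells sorted from mice of the strain C57Bl6/J. All animals carried OC-GFP, a fluorescent reporter driven by the osteocalcin promoter, so both groups are cells in which that promoter was active and neither is a reporter-free control. Osteoblasts were sorted from calvaria, which are flat skull bones, and cementoblasts, which lay down the mineral layer of the tooth root, from extracted molars. Each group held 3 samples of untreated mice of mixed sex. Osteoblast replicates 1, 2 and 3 each pooled 6 mice, aged 6, 5 to 6 and 6 to 7 weeks. Cementoblast replicates 1, 2 and 3 pooled 7, 10 and 6 mice, aged 6 to 7, 5 to 6 and 6 to 7 weeks. A sample is thus a pool, and the spread between replicates is that between pools. In these bulk samples, fewer cells that express a gene and less of its RNA per cell cannot be told apart.

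Thrombospondins are secreted, calcium-binding glycoproteins of the extracellular matrix. Thbs1 and Thbs2 form trimers with type 1 repeats, the module that in Thbs1 binds latent TGF-beta and the receptor CD36. Thbs3, Thbs4 and Comp form pentamers that lack this module. Comp binds fibrillar collagens and is best known from cartilage, tendon and ligament, and mutations of human COMP cause pseudoachondroplasia. Thbs2 is made by mesenchymal cells, including bone marrow stromal cells, and Thbs4 is known from tendon, muscle and nerve.

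The arrays differed in brightness. They detected between 8480 (osteoblast replicate 1) and 13347 (osteoblast replicate 2) of the 25697 probes at a detection p under 0.05, and median signals ran from 78.5 to 111.1. Of the 7 family probes, 3, 6 and 6 were detected in osteoblasts and 3, 4 and 7 in cementoblasts, by replicate. Values of a group are listed in the order of replicates 1, 2 and 3. Levels are log2 signals after background correction and quantile normalization, on which a probe at background lies near 4. The lowest detected value was 5.11, 4.37 and 4.40 on the osteoblast arrays and 4.80, 4.75 and 4.75 on the cementoblast arrays. A lower value on an array was not detected there. Precision is limited by the number of arrays, and levels of different probes are not set against each other.

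The genes lie on 5 chromosomes of mouse build GRCm38.p6. Comp spans chr8:70373548-70382066, Thbs1 chr2:118111876-118127133, Thbs2 chr17:14665500-14694262, Thbs3 chr3:89215180-89226841 and Thbs4 chr13:92751586-92794818. RefSeq promoters matched 3 of the 5 genes, Thbs2, Thbs3 and Thbs4. The 250 bases before the start are shown for Thbs2, which every array detected, and for Thbs4, which 1 array detected, because these genes stand at the ends of detection among the matched ones. Capitals mark matches, on either strand, to any of 7 motifs. These are the TATA box as TATAAA, the upstream box CCAAT, the GC box as GGGCGG and the E-box as CANNTG. The others are the site of Runx factors as TGTGGT, the Smad element as CAGAC and the site of AP-1 factors as TGACTCA. No 2 matches overlap in these windows.
Thbs2, chr17:14694263-14694512, minus strand: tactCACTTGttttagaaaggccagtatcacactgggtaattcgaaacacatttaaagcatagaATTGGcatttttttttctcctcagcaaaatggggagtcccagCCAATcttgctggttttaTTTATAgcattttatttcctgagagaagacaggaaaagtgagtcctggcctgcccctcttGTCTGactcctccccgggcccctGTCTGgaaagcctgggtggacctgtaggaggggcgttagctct
Thbs4, chr13:92794819-92795068, minus strand: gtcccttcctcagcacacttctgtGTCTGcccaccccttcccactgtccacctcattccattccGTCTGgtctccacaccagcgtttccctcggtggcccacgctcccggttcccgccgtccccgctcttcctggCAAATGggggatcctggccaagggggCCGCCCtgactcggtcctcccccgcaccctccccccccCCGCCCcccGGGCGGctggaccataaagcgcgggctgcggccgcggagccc
The Thbs2 window held 1 TATA box, 126 bases before the start on the strand opposite to the one printed, and 2 CCAAT boxes. TATA boxes were found in 12.4% and CCAAT boxes in 33.8% of 32851 promoter windows of this length. Thbs4 held neither, but 3 GC boxes, a motif present in 32.7% of windows. The GC content was 46.8% for Thbs2, 58.8% for Thbs3 and 70.8% for Thbs4, beside a median of 52.4% over all windows. Both printed windows held 2 Smad elements (42.2% of windows hold one) and 1 E-box (66.2%). The Thbs3 window held 1 CCAAT box, 1 GC box and 1 E-box. A Runx site (14% of windows) or an AP-1 site (4.46%) was found in none of the 3. A match describes these letters and is no sign that a factor binds there.

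Comp stood near background on the cementoblast arrays and well above it on the osteoblast arrays. Its log2 signal (probe ILMN_2869110) was 7.54, 7.49 and 7.24 on the osteoblast arrays. The cementoblast arrays stood at 4.33, 4.37 and 5.26. All osteoblast arrays lay above all cementoblast arrays, and the highest cementoblast value belonged to replicate 3. Every osteoblast array detected Comp, but only cementoblast replicate 3 did (with detection p-values of 0.218, 0.182 and 0.00501 on the cementoblast arrays). The means were 7.42 ± 0.16 and 4.65 ± 0.53 (SD, n = 3 each), a log2 difference of -2.77 (SE 0.32) for cementoblasts minus osteoblasts, which is taken against background and gives no fold. The difference ran from -3.18 to -2.35 when each array was left out in turn. Comp values were close together within osteoblasts, over a range of 0.31, and 20.0% of the 11198 probes kept had a smaller osteoblast range.

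The size of the Comp difference depended on the processing, both on background correction and on the scaling between arrays. The unnormalized Comp signal was 118.6, 365.1 and 519.3 on the osteoblast arrays and 81.9, 78.2 and 88.4 on the cementoblast arrays. Divided by each array's median it was 1.46, 3.82 and 4.68 in osteoblasts and 0.991, 0.997 and 1.08 in cementoblasts. Osteoblast replicate 1, the array with the fewest detected probes, thus had a Comp signal much closer to its median than the other two before normalization. By rank the osteoblast arrays were alike: Comp stood at percentiles 91.1, 90.8 and 89.1 of the array in osteoblasts, and at 44.4, 48.0 and 69.3 in cementoblasts. The log2 difference was -1.71 with the submitters' normalized values, -1.36 without background correction and -2.04 after scaling to the 75th percentile, and the groups did not overlap under any of these.

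**Figure D1:**
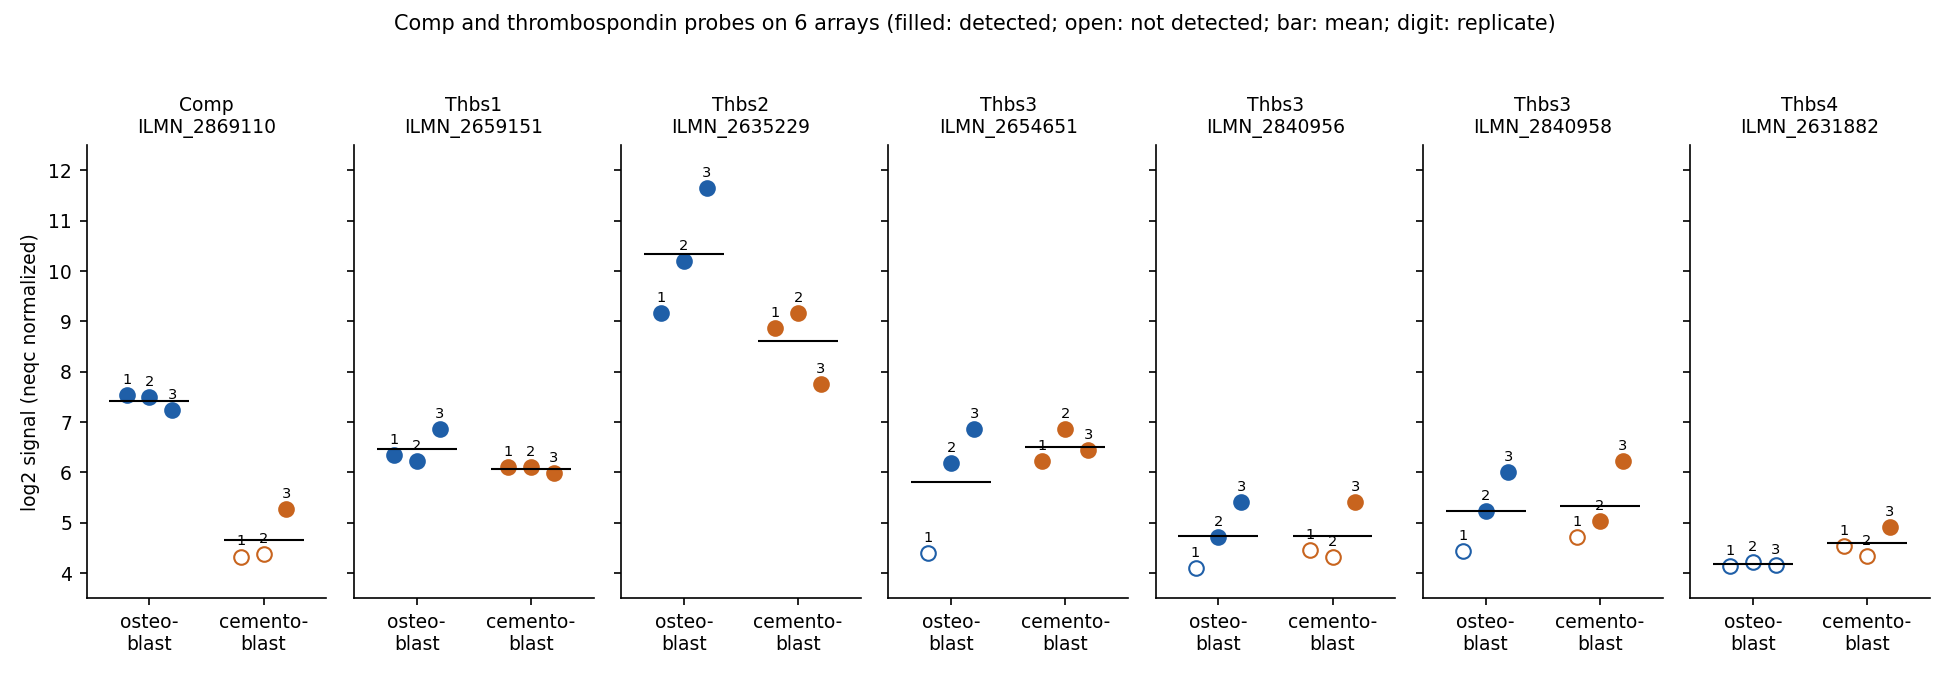
Log2 normalized signal (y axis) of the 7 probes of Comp and the thrombospondins in 3 osteoblast and 3 cementoblast arrays; each point is an array, its digit the replicate, filled where detected, and the bar is the group's mean. Comp lies at 7.24 to 7.54 in osteoblasts and 4.33 to 5.26 in cementoblasts, Thbs2 spreads from 9.17 to 11.64 within osteoblasts, and Thbs4 is detected on 1 array.

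Thbs2, which encodes a matricellular inhibitor of angiogenesis, was detected on every array and varied widely among the osteoblast arrays. Its log2 signal (probe ILMN_2635229) was 9.17, 10.21 and 11.64 on the osteoblast arrays. The cementoblast arrays stood at 8.88, 9.17 and 7.76. The groups met at 9.17, where osteoblast replicate 1 and cementoblast replicate 2 were level, while osteoblast replicates 2 and 3 lay above every cementoblast array. The means were 10.34 ± 1.24 and 8.60 ± 0.75 (SD, n = 3 each), a log2 difference of -1.74 (SE 0.84) or a 3.33-fold higher mean in osteoblasts. Leaving out osteoblast replicate 3 made it -1.13, leaving out cementoblast replicate 3 made it -1.30, and leaving out osteoblast replicate 1 made it -2.31. The Thbs2 range of 2.47 within osteoblasts exceeded that of 98.2% of the probes kept, whose median range was 0.58. Within cementoblasts the range was 1.41, larger than for 84.4% of the probes kept, whose median was 0.76.

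Unnormalized Thbs2 signals were 228.4, 2135 and 7727 on the osteoblast arrays, and 197.8, 230 and 178.3 on the cementoblast arrays. As multiples of the array's median they were 2.81, 22.3 and 69.6 in osteoblasts and 2.39, 2.93 and 2.18 in cementoblasts. Osteoblast replicate 1 was thus level with the cementoblast arrays and far below the other osteoblast arrays on this scale. Its low median and its 75th percentile of 86.6, against 151 and 215.4 on osteoblast replicates 2 and 3, moved with this, and their part in the Thbs2 spread was not tested. In rank, Thbs2 stood at percentiles 97.4, 99.0 and 99.7 in osteoblasts and 96.7, 97.5 and 92.4 in cementoblasts. With the submitters' values and with 75th percentile scaling all cementoblast arrays lay below all osteoblast arrays, with differences of -1.78 and -2.16, and the difference was -1.58 without background correction.

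**Figure D2:**
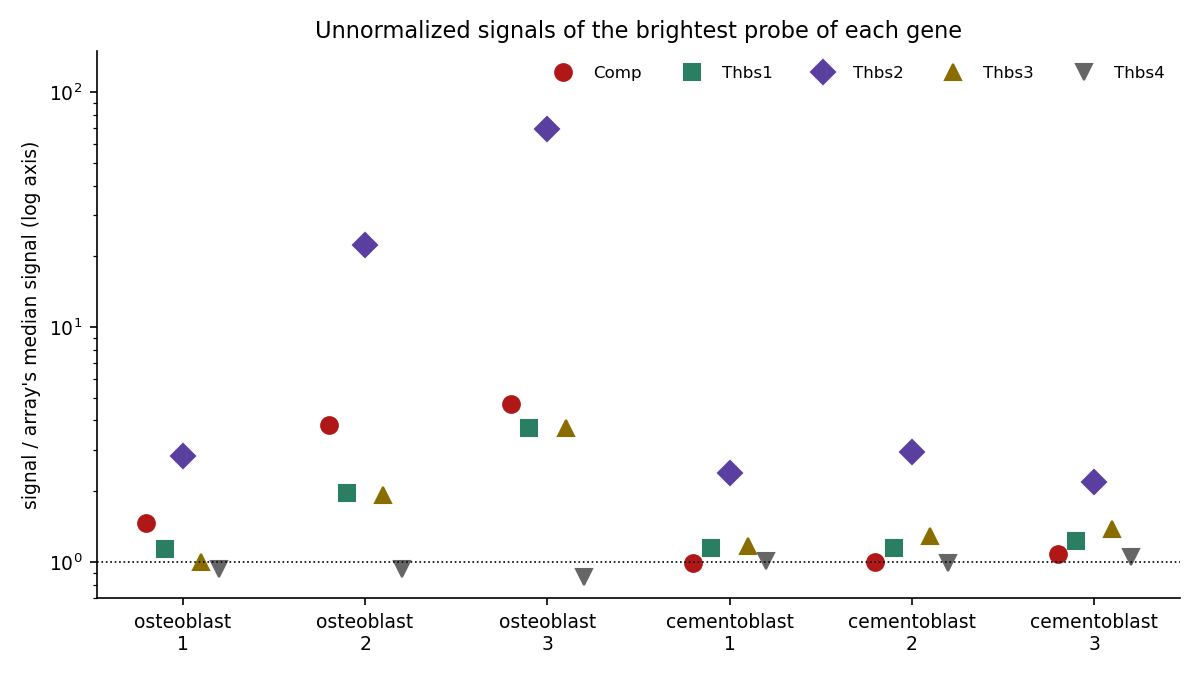
Unnormalized signal of the brightest probe of each gene divided by the median signal of its array (log axis), for the 6 arrays; points of an array are set slightly apart, and the dotted line marks the array's median. Thbs2 stands at 2.81, 22.3 and 69.6 on the osteoblast arrays, and Comp at 0.991 to 1.08 on the cementoblast arrays.

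Thbs1, an activator of latent TGF-beta and a ligand of CD47, was detected on all arrays with small differences. Its log2 signal (probe ILMN_2659151) was 6.34, 6.22 and 6.86 in osteoblasts. The cementoblast values were 6.10, 6.11 and 5.99. The cementoblast arrays lay just below the osteoblast arrays, and the nearest were osteoblast replicate 2 and cementoblast replicate 2. The means were 6.47 ± 0.34 and 6.07 ± 0.07 (SD, n = 3 each), a log2 difference of -0.41 (SE 0.20), and -0.19 without osteoblast replicate 3. With the submitters' values the groups overlapped and the difference was -0.21. It was -0.22 without background correction and -0.52 after 75th percentile scaling. The cementoblast range of 0.13 was among the narrowest on the arrays, since 1.99% of the probes kept had a smaller one.

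Thbs3, a pentameric thrombospondin with a known role in skeletal maturation of mice, had overlapping groups at each of its 3 probes. The brightest, ILMN_2654651, had a log2 signal of 4.40, 6.18 and 6.85 in osteoblasts. In cementoblasts it had 6.23, 6.85 and 6.45. Osteoblast replicate 1 stood alone at background, where none of the 3 probes was detected, and the other 5 arrays lay together. The means were 5.81 ± 1.27 and 6.51 ± 0.32 (SD, n = 3 each), and the difference of 0.70 (SE 0.75) became -0.0029 without osteoblast replicate 1. The other probes gave differences of -0.015 (SE 0.51, ILMN_2840956) and 0.10 (SE 0.65, ILMN_2840958). At ILMN_2840956 the log2 signals were 4.10, 4.72 and 5.41 in osteoblasts and 4.46, 4.32 and 5.40 in cementoblasts. At ILMN_2840958 they were 4.43, 5.22 and 6.01 in osteoblasts and 4.71, 5.04 and 6.22 in cementoblasts. Both dimmer probes were highest on replicate 3 of each group, which the brightest probe was not in cementoblasts, so the probes order the cementoblast arrays differently. Neither dimmer probe was detected on cementoblast replicate 1, nor ILMN_2840956 on replicate 2. For the brightest probe the difference was 0.39 with the submitters' values, 0.28 without background correction and 0.02 with 75th percentile scaling.

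Thbs4 was at background on nearly all arrays. Its log2 signal (probe ILMN_2631882) was 4.14, 4.22 and 4.16 on the osteoblast arrays and 4.54, 4.34 and 4.92 on the cementoblast arrays. Only cementoblast replicate 3, the highest, was called detected (with a detection p-value of 0.0288), so the probe did not pass the filter of 3 detected arrays and has no fold. The other 4 genes, with 6 of the 7 probes, passed that filter. The means of 4.17 ± 0.04 and 4.60 ± 0.30 (SD, n = 3 each) differed by 0.43 (SE 0.17). The Thbs4 groups overlapped after 75th percentile scaling. Cementoblast replicate 3 was the array that detected all 7 family probes.

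Among the 4 genes that passed the filter, all cementoblast arrays lay below all osteoblast arrays for Comp and Thbs1 and above them for no gene, and for Thbs2 and Thbs3 the groups overlapped. Over all 8111 genes tested, 5.57% had all cementoblast arrays below and 5.72% all above. Nothing is read from the family's count beside these shares, since Comp was selected on this contrast.

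**Figure D3:**
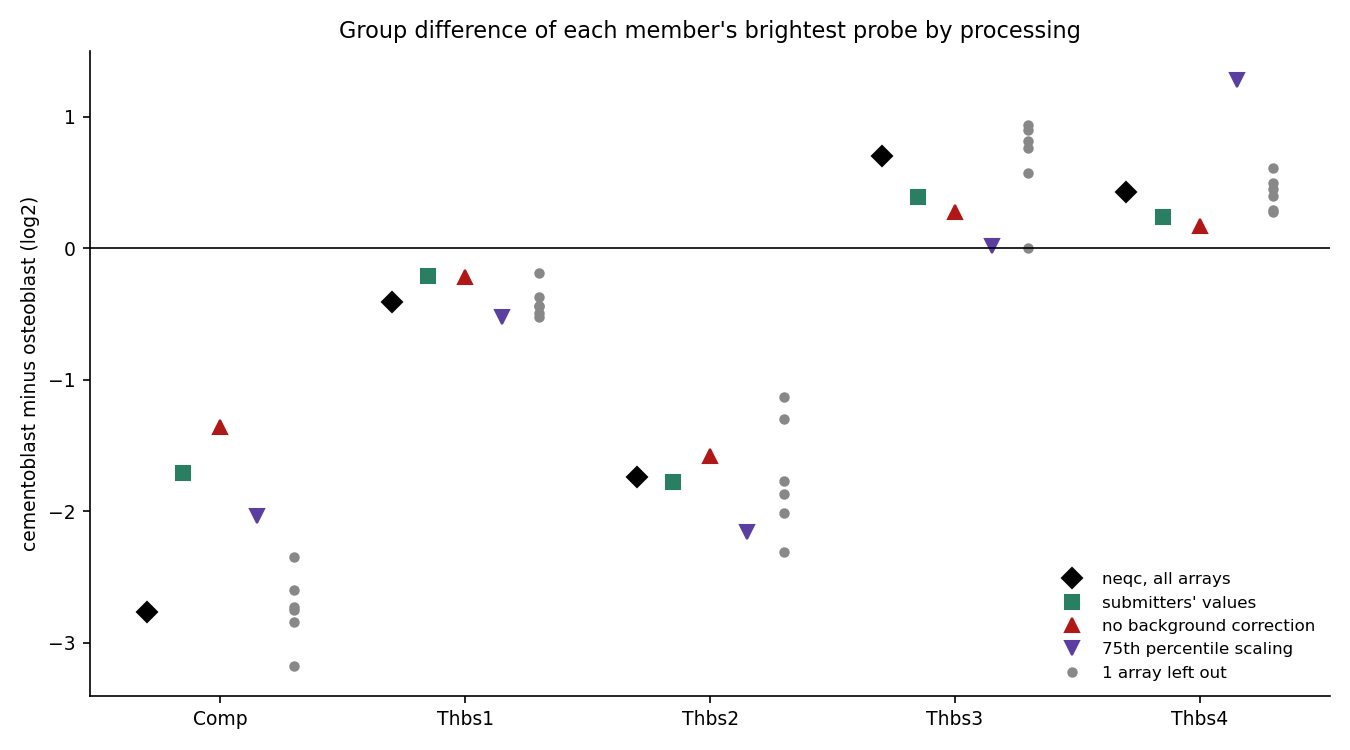
Cementoblast minus osteoblast log2 difference (y axis) of each gene's brightest probe under the normalization used here, with the submitters' values, without background correction, with 75th percentile scaling and with each array left out. Comp stays between -3.18 and -1.36, Thbs2 between -2.31 and -1.13, and Thbs3 lies at about 0 without osteoblast replicate 1.

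None of the 4 family genes that passed the filter was among the 5 genes nearest to another in profile over the arrays. Likeness was measured as the root mean square difference of log2 signals over the 6 arrays, after each gene was centred on its own mean. It includes the difference between the groups, and is a description over arrays that share brightness and processing. Comp and Thbs2 differed by 1.21 on this measure, which made Thbs2 the gene at rank 849 of 8110 by likeness to Comp, whose median difference from all genes was 1.44. Comp differed from Thbs1 by 1.26 and from Thbs3 by 1.95. Thbs1 and Thbs2 differed by 0.957, Thbs1 and Thbs3 by 0.864, and Thbs2 and Thbs3 by 1.31. Thbs1 stood at rank 222 by likeness to Thbs2, while Thbs2 stood at rank 7579 by likeness to Thbs1. The measure counts the size of a gene's swing as well as its direction. A flat gene and a widely varying gene thus differ on it even where they move together.

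The genes nearest to Comp were Nnmt at 0.344, Angpt2 at 0.355, Galnt9 at 0.370, Zic1 at 0.371 and Pth1r at 0.428. Nnmt encodes nicotinamide N-methyltransferase, Angpt2 a ligand of the receptor Tie2, Galnt9 an enzyme of O-glycosylation, Zic1 a zinc finger transcription factor and Pth1r the parathyroid hormone receptor. Angpt2 had log2 signals of 9.51, 9.01 and 9.27 in osteoblasts and 6.52, 5.71 and 6.55 in cementoblasts. All 5 stayed among the 50 nearest with the submitters' values, and 3 did so without background correction or with 75th percentile scaling.

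For Thbs2 the nearest gene was Tnn, which encodes the bone matrix protein tenascin-W, at 0.274 beside a median of 1.27 over all genes. Tnn had log2 signals of 7.95, 9.10 and 10.11 in osteoblasts and 7.04, 7.61 and 6.66 in cementoblasts. Its replicates stood in the same order as those of Thbs2 in both groups. Next came Rasgrf1 at 0.358, Fmo1 at 0.415, Ccdc3 at 0.452 and Il33 at 0.476, and all 5 stayed among the 50 nearest under each of the 3 other scalings. Rasgrf1 encodes a Ras exchange factor, Fmo1 a flavin monooxygenase, Ccdc3 a secreted coiled-coil protein and Il33 an alarmin cytokine.

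Nearest to Thbs1 were Smim19 at 0.074, Skiv2l at 0.103, Arl2bp at 0.118, Ebpl at 0.119 and Clmp at 0.130, beside a median of 0.453. Thbs3 had Peg3 at 0.168, Cdk5rap2 at 0.246, L3mbtl3 at 0.255, Svil at 0.281 and Ptn at 0.333, beside a median of 0.917. Peg3 is an imprinted zinc finger gene and Ptn encodes the growth factor pleiotrophin. Of these, 3 of 5 stayed among the 50 nearest for Thbs1 and for Thbs3 with 75th percentile scaling. With the submitters' values 3 stayed for Thbs1 and 4 for Thbs3, and without background correction 5 and 4.

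**Figure D4:**
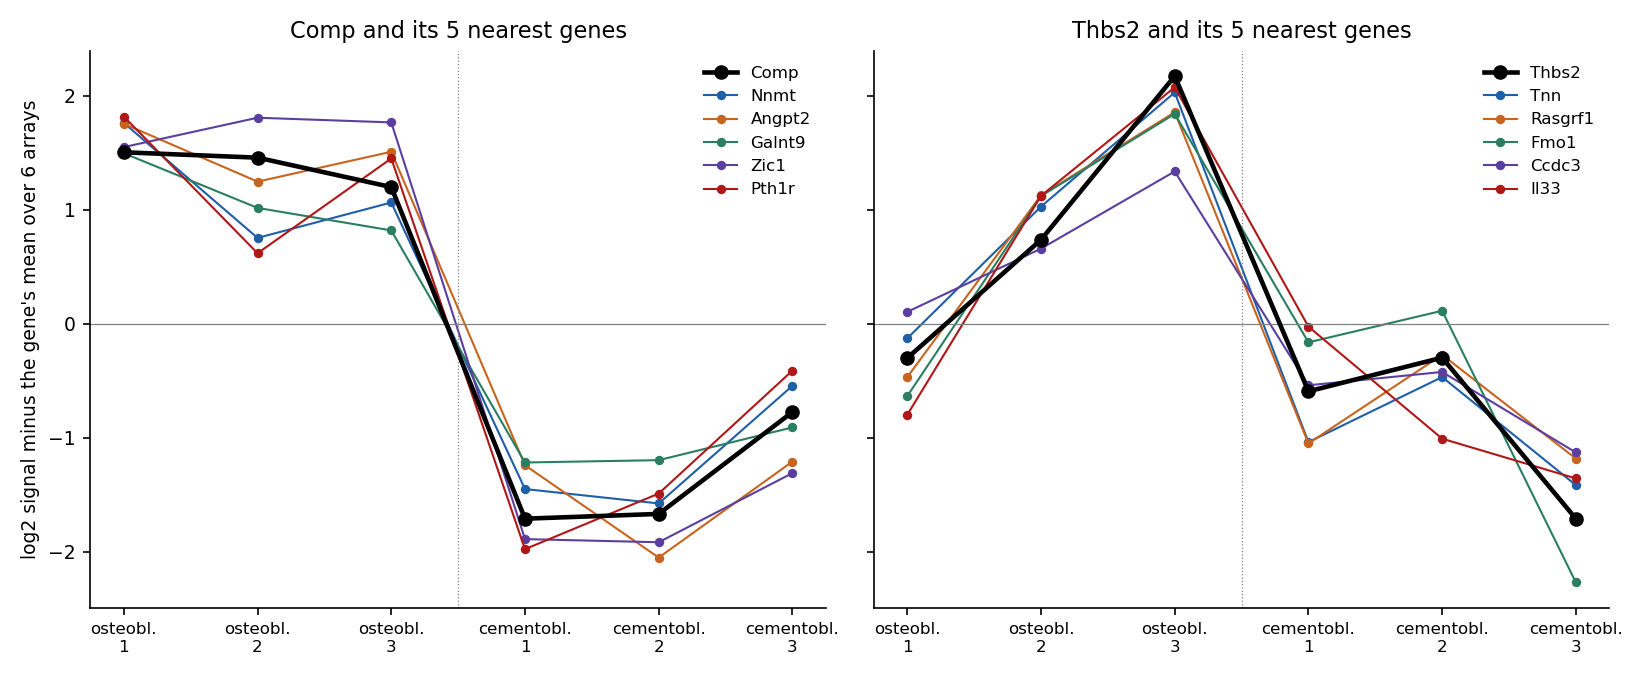
Log2 signal of Comp (left) and Thbs2 (right) and of the 5 genes nearest to each, minus each gene's mean over the 6 arrays; lines only join the points of a gene, and replicates have no order. The Comp panel parts the groups, while Thbs2 and Tnn spread widely within osteoblasts.

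Genes that act with the family were read from 8 lists, in the fit over all 8111 genes, where 0.148% passed the limma test as higher in cementoblasts and 0.173% as lower. The median difference of all genes was -0.02, and 52.5% lay below 0. Among 151 list genes tested, markers of other cells included, 1 passed. It was Fmod, which encodes fibromodulin, a small leucine-rich proteoglycan that binds collagen fibrils. Fmod fell from 9.96 ± 0.91 in osteoblasts to 6.11 ± 0.64 in cementoblasts (SD, n = 3 each), a log2 difference of -3.85 (SE 0.51, limma adjusted p = 0.0304). By array, Fmod stood at 8.97, 10.13 and 10.78 in osteoblasts and at 6.62, 6.31 and 5.39 in cementoblasts. All arrays detected Fmod, and a dimmer Fmod probe differed by -3.39. The Fmod call was lost under several settings, among them with the submitters' values, without background correction, with 75th percentile scaling, with no detection filter and when any of osteoblast replicates 2 and 3 or cementoblast replicates 1 and 2 was left out.

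The list of collagens and matrix partners had 19 genes on the array and 13 tested, of which 1 fell, none rose and 12 did not pass. Of the 13, 11 lay below 0, and the median was -0.36. Col1a2, a chain of type I collagen, had log2 signals of 12.79 ± 0.28 and 11.32 ± 1.00 (SD, n = 3 each), a difference of -1.47 (limma adjusted p = 0.502). Acan, the cartilage proteoglycan aggrecan, differed by -0.93 (limma adjusted p = 0.885), against background, since 1 cementoblast array detected it. The 2 genes above 0 were cartilage collagens that bind Comp. Col2a1 had 6.17, 4.96 and 5.03 on the osteoblast arrays and 9.72, 6.66 and 8.13 on the cementoblast arrays, a difference of 2.78 (limma adjusted p = 0.266), or 1.75 without background correction. Col9a2 had 4.17, 4.57 and 4.85 on the osteoblast arrays and 7.62, 8.87 and 5.55 on the cementoblast arrays, a difference of 2.81 (limma adjusted p = 0.279). The osteoblast values of Col9a2, detected on 2 arrays, were near background, so its difference is taken against background. For Col2a1 and Col9a2 the cementoblast arrays lay above all osteoblast arrays, the opposite side from Comp, and neither passed the test.

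Of 17 receptors and cell-surface partners on the array, 11 were tested and 0 passed in either direction, with 6 below 0 and a median of -0.07. Cd36, Itga4 and Itgb3, receptors or receptor subunits for Thbs1, were detected on no array. Cd47, the receptor of the Thbs1 carboxyl terminus, stood at 8.31 ± 0.35 in osteoblasts and 8.36 ± 0.70 in cementoblasts (SD, n = 3 each). Sdc1, the heparan sulfate proteoglycan syndecan-1, had the smallest p, with log2 signals of 4.70, 5.10 and 5.17 in osteoblasts and 6.18, 6.35 and 6.15 in cementoblasts. The groups did not overlap, and the difference was 1.23 (SE 0.24, limma adjusted p = 0.117), or 0.73 with the submitters' values and 0.52 without background correction. Other Sdc1 probes, detected on 4 arrays and 1 array, differed by 0.81 and 0.32.

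The proteases reported to cleave COMP or thrombospondins gave 0 calls among 14 tested of 16 on the array, with a median of -0.12. Htra1, a secreted serine protease, had log2 signals of 9.23, 9.84 and 10.51 in osteoblasts and 8.58, 7.95 and 8.76 in cementoblasts, a difference of -1.43 (SE 0.39, limma adjusted p = 0.301). Mmp13, collagenase 3, was bright in both groups and differed by 0.84 (limma adjusted p = 0.730). Adamts12 was not detected on any array.

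Other proteins with type 1 repeats also gave 0 calls, over 15 tested of 24 on the array, with a median of 0.18 and 7 below 0. Rspo3, an enhancer of Wnt signalling, had 5.70, 6.66 and 6.44 in osteoblasts and 4.20, 4.28 and 4.96 in cementoblasts, a difference of -1.78 (SE 0.35, limma adjusted p = 0.115). A single cementoblast array detected Rspo3, so this is taken against background. It was -1.05 with the submitters' values, -0.72 without background correction and -1.13 with 75th percentile scaling, and Rspo3 passed the test without cementoblast replicate 3 (-2.13) and with the number in the titles as a random block (-1.82). Cilp2, a cartilage intermediate layer protein, had 5.60, 7.55 and 8.12 in osteoblasts and was not detected in cementoblasts (limma adjusted p = 0.149). On the other side, Thsd4 had means of 7.09 in osteoblasts and 8.81 in cementoblasts (limma adjusted p = 0.342). Spon1, the gene of F-spondin, was detected on all cementoblast arrays and on no osteoblast array (5.35 and 4.27, limma adjusted p = 0.330).

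Latent TGF-beta and its readouts, the pathway that Thbs1 can activate, had 12 genes tested of 15 on the array, 0 calls and a median of 0.18. Ltbp4, a binding protein of latent TGF-beta, had 6.95, 7.33 and 8.13 in osteoblasts and 9.36, 9.70 and 8.86 in cementoblasts, a difference of 1.84 (SE 0.37, limma adjusted p = 0.126). Other Ltbp4 probes differed by 1.90 (ILMN_2590034, detected on all 6 arrays) and by 0.46 (ILMN_2708681, detected on 3), so they disagree in size. The other matricellular proteins gave 0 calls among 10 tested of 14, with a median of -0.11. Ecm1, a secreted matrix protein, had means of 7.60 and 9.06 in osteoblasts and cementoblasts (limma adjusted p = 0.238), and Tnn of 9.05 and 7.10 (limma adjusted p = 0.318). The Ecm1 difference of 1.46 was 0.89 with 75th percentile scaling, and 0.64 at a dimmer probe.

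Chaperones of the endoplasmic reticulum and the Atf6 branch of its stress response, in which mouse Thbs4 is known to act, gave 0 calls among 12 tested of 14, with 9 below 0 and a median of -0.19. Ddit3, the stress-induced factor CHOP, had 6.33, 7.38 and 6.42 in osteoblasts and 7.69, 8.93 and 7.46 in cementoblasts, a difference of 1.32 (SE 0.46, limma adjusted p = 0.554), or 0.81 with 75th percentile scaling. Of 11 chromosomal neighbours, 6 were tested with 0 calls. Crtc1, which lies 285 bases from Comp, differed by 0.18, and Upf1, 20124 bases from it on the other side, by -0.23. Mtx1, 1272 bases from Thbs3, had means of 7.66 and 8.10 (limma adjusted p = 0.944), and Trim46 had 4.81 and 5.55, a difference of 0.74 (limma adjusted p = 0.558), or 0.43 with the submitters' values and 0.27 without background correction.

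**Figure D5:**
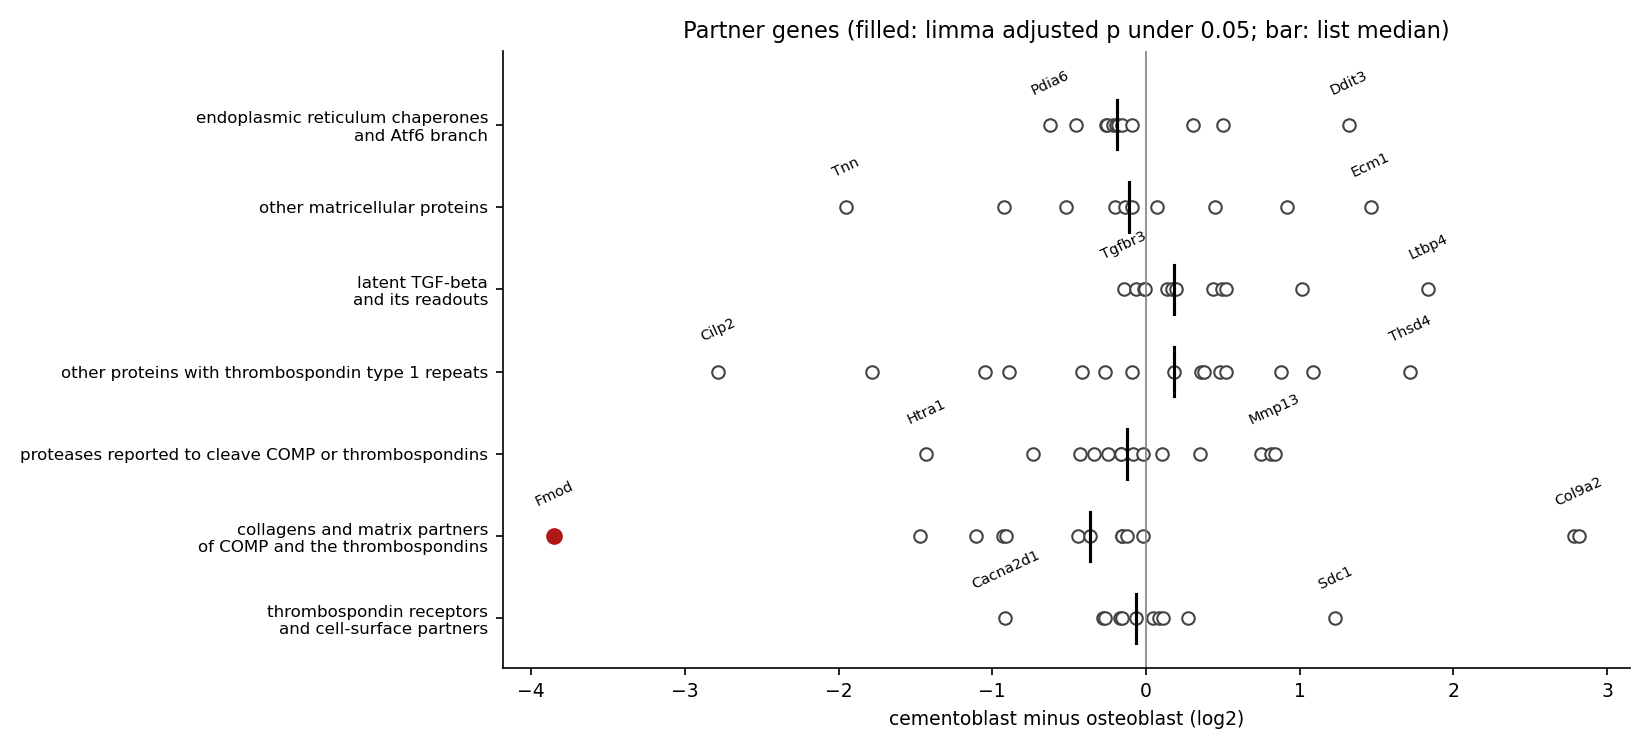
Cementoblast minus osteoblast log2 difference of each tested gene in 7 lists of partners of the family; each point is a gene, a bar marks the list's median, and the genes at either end of a list are named. Fmod, at -3.85, is the filled point, the gene past the limma test, and Col2a1 and Col9a2 stand at 2.78 and 2.81, Col9a2 against background.

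Markers of cell types known for Comp or the thrombospondins were read on the same arrays, as sums of normalized linear signal over each list. A sum also counts undetected genes, so a list at background still has a sum of some size. Beside Comp, the 12 cartilage markers summed to 314 to 397 on the osteoblast arrays and 607 to 1300 on the cementoblast arrays, with Cnmd, Col10a1 and Matn3 detected on no array. Col2a1 and Col9a2 were the brightest tested genes of this list in cementoblasts, and the cementoblast sums largely follow them. Of 5 genes tested, Col2a1, Col9a2 and Sox9 (1.25) lay above 0, and Acan (-0.93) and Col11a2 (-0.59) below. The 11 tendon and ligament markers summed to 6017, 8994 and 6787 in osteoblasts and 7869, 15443 and 5452 in cementoblasts, lowest on cementoblast replicate 3, where Comp was highest among cementoblasts. Egr1 was by far the brightest tested gene of this list, and the sums largely follow it. Its log2 signals were 12.34, 12.86 and 12.12 in osteoblasts and 12.86, 13.87 and 12.30 in cementoblasts. Among the cementoblast arrays, Fmod, Egr1, Dpt, Col14a1 and Chodl of this list were lowest on replicate 3. Mkx, at 6.61, 7.13 and 6.84, was lowest on replicate 1. Scx, a transcription factor of tendon, had log2 signals of 6.68, 5.71 and 6.96 in osteoblasts and 4.24, 4.86 and 6.55 in cementoblasts, so within cementoblasts it ran the other way from those 5 genes. Kera and Postn were detected on no array. Beside Thbs1, the 9 platelet markers summed to 218 to 632 in osteoblasts and 188 to 465 in cementoblasts, with Gp5, Treml1 and Tubb1 undetected. Detected platelet markers numbered 0, 6 and 3 on the osteoblast arrays and 2, 3 and 1 on the cementoblast arrays. Beside Thbs2, the 10 smooth muscle and pericyte markers summed to 3184 to 4261 and 584 to 2904, lowest on cementoblast replicate 3, where Thbs2 was lowest too. The epithelial, endothelial, neutrophil and macrophage sums given below were also lowest among cementoblast arrays on this replicate, and the osteoblast marker sum was highest. Most of the drop in the smooth muscle and pericyte sum was Acta2, at log2 signals of 10.74, 11.16 and 6.51 on the cementoblast arrays. Among these arrays Notch3, Rgs5, Myh11 and Tagln were also lowest on replicate 3. Pdgfrb (7.18, 7.48 and 7.94) and Cspg4 (5.60, 5.82 and 6.44) were highest on it, and Abcc9 was lowest on replicate 1. Beside Thbs4, the 12 skeletal muscle markers summed to 256 to 713 and 228 to 262, with Myh4, Myh7 and Pax7 undetected. Detected muscle markers numbered 1, 8 and 7 on the osteoblast arrays. They numbered 2, 1 and 0 on the cementoblast arrays, whose sums are thus near background. The part of these cells in the family's signals was not tested.

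Osteoblast and mineralised matrix markers, the labelled identity of both groups, were present throughout: 9 to 11 of 11 were detected on each array, with sums of 53497 to 66353 in osteoblasts and 28149 to 69690 in cementoblasts. Sums of epithelial markers were 207 to 249 in osteoblasts and 5389, 4831 and 302 on cementoblast replicates 1, 2 and 3, so the cementoblast arrays differ among themselves. Detected epithelial markers numbered 1, 3 and 1 in osteoblasts and 9, 8 and 2 in cementoblasts. The endothelial sums were 282 to 576, and 1399, 1183 and 215. Detected endothelial markers numbered 2, 7 and 9, and 9, 9 and 0, so the sum of 215 is background. The neutrophil sums were 1478, 13824 and 11672 in osteoblasts and 47665, 16747 and 5054 in cementoblasts. Those of macrophage markers were 305, 6558 and 2962, and 6171, 2569 and 384. In these lists the member with the smallest p did not pass: Ambn of the enamel organ (3.01, limma adjusted p = 0.182), Cdh5 of endothelium (0.78, 0.830), Retnlg of neutrophils (1.98, 0.805) and Cd163 of macrophages (-0.55, 0.975). The same held for Vwf in the platelet list (1.46, 0.783), Des in muscle (-0.49, 0.884), Tagln in smooth muscle (-0.75, 0.594) and Pth1r among osteoblast markers (-2.59, 0.0960). Not all of these calls and sizes held with an array left out. Without cementoblast replicate 3, Ambn (3.78), Cdh5 (1.35), Vwf (2.42) and Pth1r (-3.04) passed the test, and Pth1r also did with the number in the titles as a random block (-2.43). Vwf was 0.92 without cementoblast replicate 1, Retnlg 0.82 without osteoblast replicate 1 and Tagln -0.42 without osteoblast replicate 3. Cd163 was -1.40 and 0.23 without osteoblast replicates 1 and 2, and -0.92 and -0.02 without cementoblast replicates 2 and 3. The differences of Des, Tagln and Cdh5 are taken against background, since at most 1 array of either osteoblasts (Cdh5) or cementoblasts (Des and Tagln) detected them. Without background correction Ambn, Retnlg, Vwf, Cdh5, Cd163, Tagln and Des differed by 1.90, 1.30, 0.72, 0.25, -0.31, -0.25 and -0.16. With 75th percentile scaling Retnlg differed by 0.95, Tagln by -0.09 and Des by 0.57, and with the submitters' values Vwf differed by 0.85, Cdh5 by 0.47, Tagln by -0.39, Cd163 by -0.29 and Des by -0.27.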

How the data were processed

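Bead signals were measured in 6 samples, 3 of osteoblasts and 3 of cementoblasts. Cells were freed by trypsin and collagenase, for the calvaria after a discarded first fraction, and their RNA was amplified and biotin-labelled, per the labels. The deposited tables hold linear signal intensity for each probe, non-normalized and as normalized by the authors, and a detection p-value beside each non-normalized value, per the file headers. The submitters' processing notes name lumi, with its settings not given in the sources used here. Columns were matched to samples through the titles, except that the third column of each tissue has another number than its title and was matched by tissue code.

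The intensities were corrected and normalized with the neqc function (limma 3.58.1, R 4.3.3; offset 16, quantiles, log2). Values near the background are compressed by this. Probes detected (p under 0.05) on 3 or more arrays were kept (11198), the brightest standing for each of 8111 genes. Symbols came from the platform annotation, where 23978 probes have 1 symbol and 1719 none here. Differences were fitted with lmFit and eBayes and adjusted by Benjamini-Hochberg over all genes at 0.05. The SE of a family member's difference comes from its own group variances, and that of a list gene is limma's moderated SE. The SEs of members and list genes are thus not set against each other. The samples share replicate numbers but no block was used.

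The members and the 18 lists, of which 224 genes are on the array and 151 were tested, were chosen with earlier results of these data known. By rule, the text names all members, the 5 genes nearest to each, and for each list up to 4 genes past the test or else that with the smallest p. Other list genes were named after their values were seen. Alternatives were the authors' values, no background correction, 75th percentile scaling, other filters, all probes, trend and robust variance, blocks, and each array left out. Likeness and overlap under other scalings were added after seeing the data. The fit was tested on simulated data. Comp and Thbs1 promoters, and all proteins, were not analysed here.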

Additional observations from a re-analysis of the deposited data

How the results depend on the processing

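Comp and Thbs2 lay lower in cementoblasts under every alternative run. The Comp difference ran from -3.18 to -2.35 with an array left out, and was -1.71 with the submitters' values, -1.36 without background correction and -2.04 with 75th percentile scaling. Thbs4, at background, moved from 0.43 to 0.17 without background correction and 1.28 with 75th percentile scaling. The counts of genes past the test, 12 higher, 14 lower and 1 among the lists, depended on the processing, and the cause was not tested. They were 5, 9 and 0 with the submitters' values and 5, 12 and 0 without background correction. With 75th percentile scaling, which moves the median of all genes to -0.08, they were 0, 2 and 0 (limma, 599 at an unadjusted p under 0.05). They were 4, 4 and 0 with no filter on detection, and 1 and 5 with genes detected on all 6 arrays. Trend and robust variance gave 23 lower, and testing all probes separately 2 among the lists. Correlations of same-numbered samples, taken over genes on deviations from each gene's group mean, were -0.356, 0.362 and 0.09 for replicates 1, 2 and 3. Those of differently numbered samples ran from -0.584 to 0.487. With 3 samples in each group, whose deviations cancel out for each gene, these values cannot decide whether same-numbered samples belong together. The titles of replicates 2 and 3 carry the same number in both tissues, and those of replicate 1 do not. With the replicate block limma called 0, 0 and 0, so Fmod did not pass, while 568 genes had an unadjusted p under 0.05. The title number as a random block gave 38, 36 and 3. Leaving out arrays gave 0 to 88 higher, 0 to 61 lower and 0 to 12 among the lists. The highest counts came without cementoblast replicate 3, and 0 by limma without cementoblast replicate 2 (362 at an unadjusted p under 0.05). Without any of the others they were 2 to 4 higher and 1 to 6 lower. Des reversed to 0.57 with 75th percentile scaling, and Cd163 ran from -1.40 to 0.23, reversing without osteoblast replicate 2. Signal over background limits Comp in cementoblasts and Thbs4 everywhere.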
